A study of Mus musculus with 10 samples.

Results

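Ryr2 encodes a ryanodine receptor, a calcium release channel of the endoplasmic reticulum (ER), and was described here with 9 other genes of the ER calcium store and of calcium entry. These were the inositol trisphosphate (IP3) receptors Itpr1 and Itpr2, the calcium pumps Atp2a2 and Atp2a3, the voltage-gated channel gene Cacna1a with the auxiliary subunits Cacna2d1 and Cacna2d3, and the store-operated entry genes Stim1 and Orai1. All 10 were found by symbol among the 32889 genes of the deposited table. They were chosen with results of these libraries known, and Ryr2, Cacna1a and Cacna2d3 for being higher in high-fat diet libraries, so the levels of these 3 genes are a description. RNA of brown adipose tissue of wild-type C57BL/6J mice had been sequenced in 3 obesity-prone libraries and 3 obesity-resistant libraries, both from mice on a high-fat diet, and in 4 control libraries from mice on regular chow. The age and sex of the mice, the time on the diet, whether animals were pooled and whether libraries stand for separate animals are not given in the sources used here. The p-values therefore measure only the spread between libraries, which may be technical.

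Calcium is kept at a high concentration inside the ER by pumps of the SERCA family, which Atp2a2 (SERCA2) and Atp2a3 (SERCA3) encode, and it leaves through ryanodine receptors and IP3 receptors. When the store runs low, STIM1 in the ER membrane opens the plasma membrane channel ORAI1. Voltage-gated channels are a second way in, with a pore-forming alpha1 subunit such as that encoded by Cacna1a and an extracellular alpha2-delta subunit such as those encoded by Cacna2d1 and Cacna2d3. Ryr2 is best known as the release channel of heart muscle and is also used in brain, while Ryr1 is the form of skeletal muscle. In beige fat, repeated release through RYR2 and refilling through SERCA2 is known as a source of heat that does not need UCP1.

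Total counts per library ran from 35583997 to 37327770. Ucp1, whose product uncouples respiration in brown adipocytes, was at 6815, 8461 and 2882 CPM (counts scaled to library size) in obesity-prone replicates 1 to 3, at 8653, 9753 and 9140 CPM in obesity-resistant replicates 1 to 3, and at 6240, 8771, 9384 and 10271 CPM in control replicates 1 to 4. The label of brown adipose tissue thus held by this marker, with obesity-prone replicate 3 the lowest. That library also stood farthest from the others on the first principal component of all genes tested, at -74.6. Control replicate 4, at -11.1, lay apart from the other controls, at 34.9 to 55.6. In bulk tissue, fewer cells of a type and less RNA per cell cannot be told apart.

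Shown are the promoters of Ryr2 and Cacna2d3, both higher on the high-fat diet, and of Itpr2, a release channel gene that was not. They are the RefSeq sequence of GRCm38.p6 from 250 bases before to 50 bases after an annotated start. The Cacna2d3 window lies wholly inside the span of that gene, 28904943 to 29722775. The start used for Itpr2 also lies inside its gene span, 146108299 to 146502258, so neither is the outermost start. RefSeq entries were used for 7 of the 10 genes. All 3 windows lie on the minus strand, that of Ryr2 at chr13:12106896-12107195, that of Cacna2d3 at chr14:29721815-29722114 and that of Itpr2 at chr6:146502174-146502473. Capitals mark matches, on either strand, to the GC box GGGCGG, the nuclear receptor element AGGTCA and the box CCAAT, so that a match on the other strand appears as its reverse complement.
Ryr2: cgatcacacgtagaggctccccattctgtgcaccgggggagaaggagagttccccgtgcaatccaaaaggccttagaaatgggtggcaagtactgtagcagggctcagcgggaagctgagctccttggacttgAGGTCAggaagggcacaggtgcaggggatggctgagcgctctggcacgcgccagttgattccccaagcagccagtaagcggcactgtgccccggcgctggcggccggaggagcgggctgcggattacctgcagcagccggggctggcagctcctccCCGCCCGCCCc
Cacna2d3: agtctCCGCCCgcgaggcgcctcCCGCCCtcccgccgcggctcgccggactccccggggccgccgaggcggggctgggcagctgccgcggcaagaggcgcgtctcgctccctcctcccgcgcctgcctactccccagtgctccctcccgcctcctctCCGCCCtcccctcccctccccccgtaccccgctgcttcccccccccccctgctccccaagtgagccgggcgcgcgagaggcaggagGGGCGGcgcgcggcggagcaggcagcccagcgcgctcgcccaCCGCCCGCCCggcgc
Itpr2: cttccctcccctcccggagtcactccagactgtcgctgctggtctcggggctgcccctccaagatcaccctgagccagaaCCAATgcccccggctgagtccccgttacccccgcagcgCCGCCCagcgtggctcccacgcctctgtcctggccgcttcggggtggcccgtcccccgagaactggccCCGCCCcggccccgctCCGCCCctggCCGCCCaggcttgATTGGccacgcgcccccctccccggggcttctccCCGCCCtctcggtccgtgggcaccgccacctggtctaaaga
The Ryr2 window held 1 AGGTCA, a motif in 16.3% of the 32851 promoters of the same length, and 2 overlapping GC boxes, a motif in 35.7% of promoters. The Cacna2d3 window held 6 GC boxes, the last 2 overlapping, and neither of the other marked motifs. The Itpr2 window held 5 GC boxes and 2 CCAAT boxes, CCAAT being in 37.4% of promoters. Guanine and cytosine made up 65.3% of the Ryr2 window, 81.3% of the Cacna2d3 window and 73.3% of the Itpr2 window. None of the 3 windows held TGACG (20.8% of promoters, including the longer TGACGTCA, 1.79%), TATAAA (13.6%), CACGTG (7.15%) or TTTCC (61.3%) on either strand. These matches describe the letters only.

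Ryr2 (identifier 20191, chromosome 13, 11553099 to 12106945 in GRCm38.p6) was at 92.2, 122 and 94.6 CPM in obesity-prone libraries, at 85.3, 82.8 and 90.0 CPM in obesity-resistant libraries, and at 21.8, 28.0, 25.5 and 33.4 CPM in control libraries. Every library of either high-fat diet group lay above every control library. The means were 103 ± 16.4 CPM in obesity-prone (SD, n = 3), 86.0 ± 3.67 CPM in obesity-resistant (n = 3) and 27.2 ± 4.88 CPM in control libraries (n = 4). The log2 fold change was 1.92 ± 0.15 (SE) for obesity-prone over control and 1.66 ± 0.15 for obesity-resistant over control. In CPM the lowest obesity-prone library was just above the highest obesity-resistant one, and their log2 fold change of 0.26 ± 0.15 did not pass the test across all genes. Without obesity-prone replicate 3 the log2 fold change of Ryr2 over control was 1.98, and without control replicate 4 it was 2.03.

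**Figure D1:**
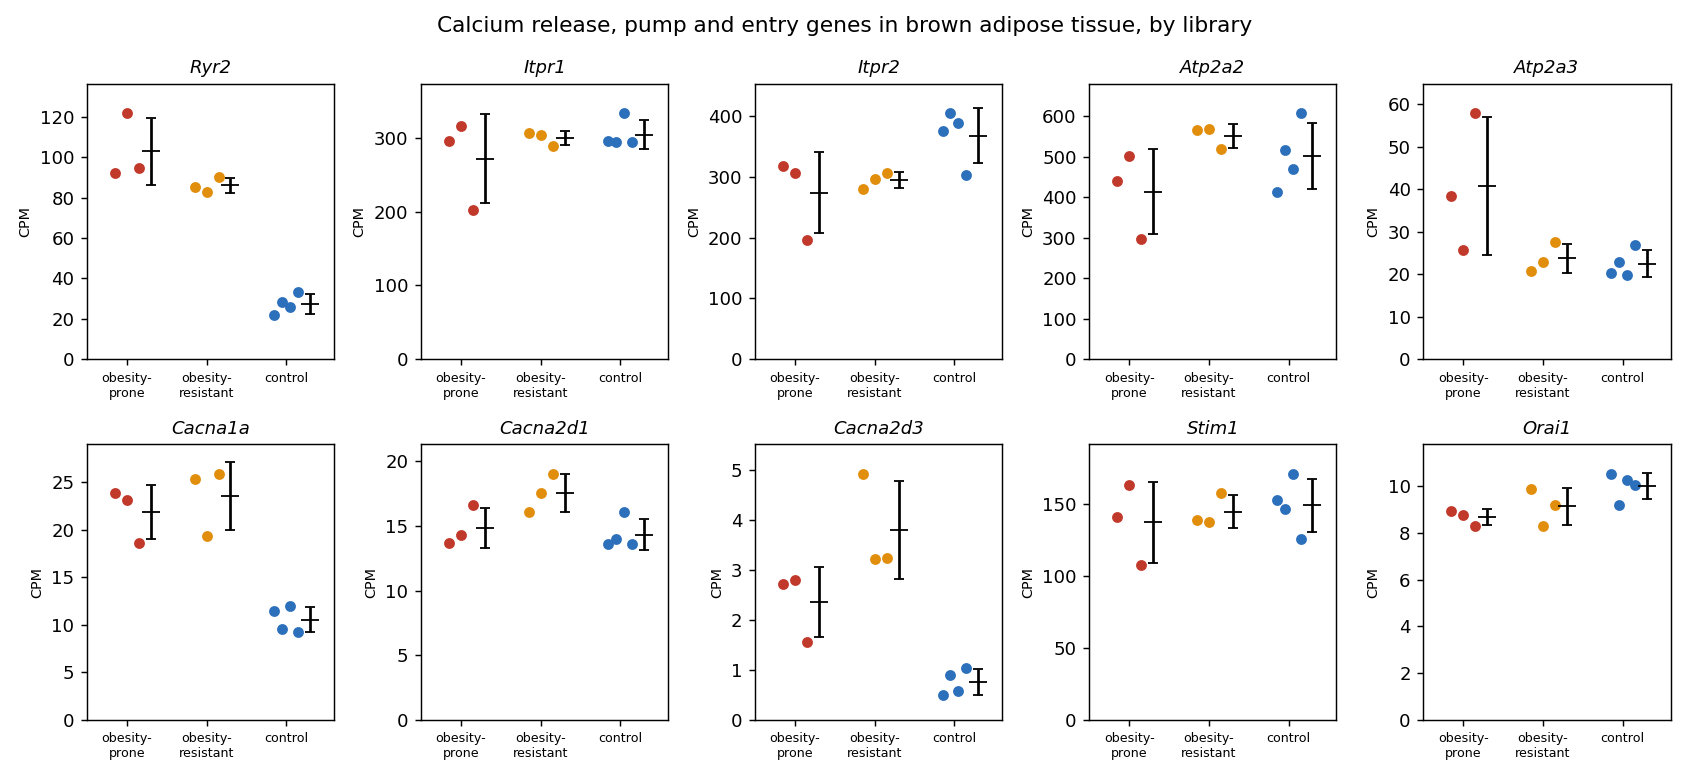
CPM (vertical axes, each from 0) of the 10 genes in each library, with the 3 obesity-prone, 3 obesity-resistant and 4 control libraries as points and the group mean with 1 SD as bars. Ryr2, Cacna1a and Cacna2d3 lie higher in all libraries of both high-fat diet groups than in any control library, and the other 7 genes overlap with control in at least 1 of these groups.

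Of the 10 genes, Ryr2, Cacna1a and Cacna2d3 passed the threshold (adjusted p below 0.05, edgeR quasi-likelihood test) as higher in obesity-prone than in control libraries, where 7% of the 19676 genes tested passed (3.71% as higher). The same 3 passed as higher in obesity-resistant than in control libraries, where 28 genes or 0.142% passed (0.0966% as higher). As the 3 genes were chosen on these contrasts, nothing is read from the counts. Separately, groups that did not overlap were counted. Obesity-prone and control libraries did not overlap for 3 of the 10 genes as higher and 1 as lower (9.66% and 10.6% of all genes tested, 20.3% together). Obesity-resistant and control libraries did not overlap for 3 as higher and 0 as lower (10.5% and 9.71%, 20.2% together). With the replicate number as a block, a pairing that the labels do not give, 382 genes passed for obesity-resistant against control and again 3 of the 10. Over the 10 genes the median log2 fold change was -0.03 for obesity-prone over control and 0.11 for obesity-resistant over control, against medians near 0 over all genes tested. Both comparisons share the control libraries.

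**Figure D2:**
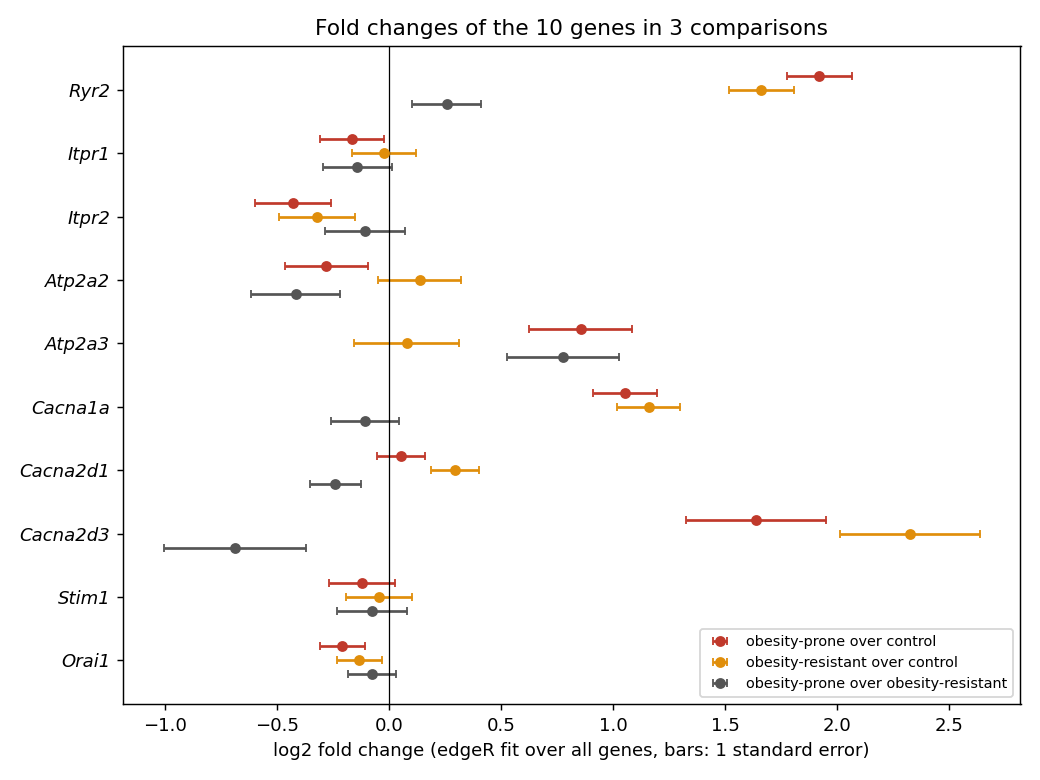
Log2 fold changes (horizontal axis) of the 10 genes from the fit over all genes tested, with 1 SE as bars, for obesity-prone over control, obesity-resistant over control and obesity-prone over obesity-resistant. Only Ryr2, Cacna1a and Cacna2d3 passed the threshold, in both comparisons with control, and the values for the other 7 genes run from -0.43 to 0.85 against control.

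Levels of different genes were compared in FPKM, which divides by transcript length. Ryr2 was at 11.8, 13.3 and 11.6 FPKM in obesity-prone libraries, at 11.5, 11.9 and 11.9 FPKM in obesity-resistant libraries, and at 4.39, 5.13, 4.62 and 5.99 FPKM in control libraries. On this scale the high-fat diet groups overlapped each other and neither overlapped control. The ratio of mean FPKM was 2.43 for obesity-prone over control and 2.33 for obesity-resistant over control, against ratios of mean CPM of 3.78 and 3.16 for the same comparisons. The direction was the same on both scales, but the size was not.

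As FPKM divides counts by length and library total, the gap between the scales is largely a difference in the transcript length used for Ryr2. RSEM averages that length over the transcripts to which the reads were assigned. The length implied by expected count, FPKM and library total was 8139, 9076 and 8490 bases in obesity-prone libraries, 7301, 7287 and 7630 bases in obesity-resistant libraries, and 4832, 5217, 5194 and 5709 bases in control libraries. The 3 groups did not overlap, with obesity-prone libraries the longest and control libraries the shortest. On the log2 scale the difference in implied length was 0.71 for obesity-prone minus control, 0.50 for obesity-resistant minus control and 0.21 for obesity-prone minus obesity-resistant. Among 11650 genes with an FPKM of at least 1 in every library, 8 genes including Ryr2 (0.0687%) differed at least as much as Ryr2 between obesity-prone and control libraries, 17 (0.146%) did so between obesity-resistant and control libraries, and 159 (1.36%) between the high-fat diet groups. The other genes of the group whose length could be set against control by that rule differed by between -0.14 for Cacna1a, obesity-resistant minus control, and 0.08 for Cacna2d1, obesity-prone minus control. For orientation, GENCODE M21 lists 14 Ryr2 transcripts, with full-length coding forms of 16813 and 16814 bases in 105 exons and shorter coding forms of 1106, 3086 and 4924 bases. The authors' own transcript set was not used here, so which forms carried the reads was not tested.

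**Figure D3:**
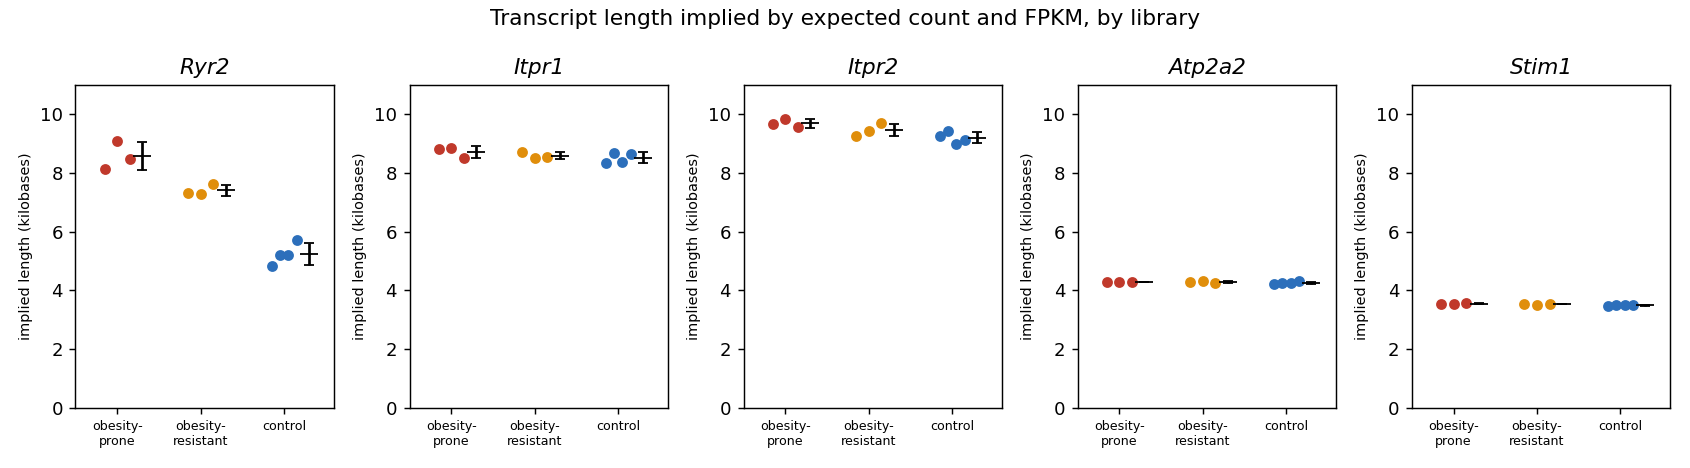
Transcript length implied by expected count and FPKM (vertical axes, in kilobases from 0) for Ryr2, Itpr1, Itpr2, Atp2a2 and Stim1 in each library, with group mean and 1 SD. For Ryr2 the obesity-prone libraries lie at 8139 to 9076 bases, the obesity-resistant ones at 7287 to 7630 bases and the controls at 4832 to 5709 bases, while Atp2a2 and Stim1 lie almost level.

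Skeletal muscle lies next to brown fat and carries its own calcium genes, so the levels were set against muscle markers. The 24 muscle markers summed to 147, 39.8 and 230 CPM in obesity-prone libraries, to 47.9, 677 and 2488 CPM in obesity-resistant libraries, and to 62.4, 2930, 1376 and 46.0 CPM in control libraries, with between 0 and 7 of them at 0 in a library. Muscle RNA varied widely within the obesity-resistant and control groups, and no obesity-prone library held a high amount. Acta1, the actin of skeletal muscle, was at 7.63, 0.734 and 17.1 CPM in obesity-prone libraries, at 0.417, 35.4 and 110 CPM in obesity-resistant libraries, and at 0.168, 130, 58.7 and 0.348 CPM in control libraries. Ryr1 followed it, at 3.38, 0.218 and 5.13 CPM in obesity-prone libraries, at 0.111, 15.7 and 54.5 CPM in obesity-resistant libraries, and at 0.0559, 76.1, 32.6 and 0.241 CPM in control libraries. Ckm, Casq1 and the muscle pump gene Atp2a1 were likewise highest in control replicate 2 or obesity-resistant replicate 3.

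Ryr2 did not follow the muscle markers. Among controls it was at 28.0 and 25.5 CPM in the libraries with most muscle RNA, and at 21.8 and 33.4 CPM in those with least. Across the 10 libraries its log2 CPM had a Pearson correlation of -0.11 with the muscle marker score, and the values were -0.06 for Cacna1a and -0.09 for Cacna2d3. With that score as a covariate, the log2 fold change of Ryr2 was 1.90 for obesity-prone over control and 1.67 for obesity-resistant over control, close to the values without it. Heart markers were also checked, since Ryr2 is the heart form. Of the 8 listed, 7 were found, and they summed to between 3.94 and 5.73 CPM in obesity-prone libraries, 3.20 and 3.73 CPM in obesity-resistant libraries, and 1.45 and 2.999 CPM in control libraries, with between 2 and 5 of them at 0. Nearly all of this was Myl4, an atrial myosin light chain, at between 3.86 and 5.47 CPM in obesity-prone libraries, 3.14 and 3.54 CPM in obesity-resistant libraries and 1.202 and 2.84 CPM in control libraries. Myl4 rose in obesity-prone over control libraries (log2 fold change 1.31 ± 0.27, adjusted p = 0.027, edgeR), and its part in the Ryr2 level was not tested. The other heart markers were at or near 0, with Myh6, a myosin heavy chain of heart, at no more than 0.261 CPM in any library.

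**Figure D4:**
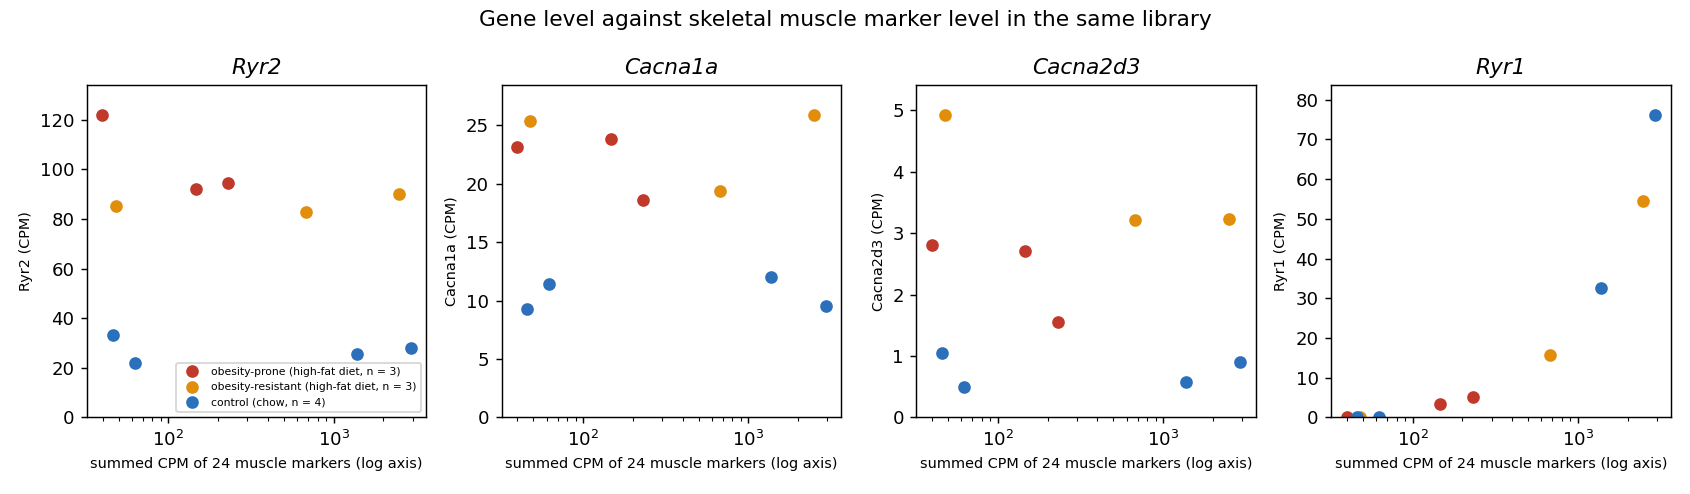
CPM (vertical axes, from 0) of Ryr2, Cacna1a, Cacna2d3 and Ryr1 against the summed CPM of 24 skeletal muscle markers (log axis) in the same library, each point 1 library coloured by group. Ryr1 climbs with the muscle markers to 76.1 CPM, while Ryr2, Cacna1a and Cacna2d3 are split by diet at both low and high marker levels.

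The 5 genes whose log2 CPM was most like that of Ryr2 over the 10 libraries, among 13901 genes with a mean of at least 1 CPM, had Pearson correlations between 0.983 and 0.990. Among them, in order, were Lamb3, a laminin chain of basement membranes, Plod1, a lysyl hydroxylase of collagen, Bicd2, an adaptor of the dynein motor, and the kinase gene Ick. Lamb3 averaged 16.6 ± 0.732 CPM in obesity-prone, 14.2 ± 0.555 CPM in obesity-resistant and 4.73 ± 0.410 CPM in control libraries. Plod1, Bicd2 and Ick had smaller ratios, as with Ick at 67.6 ± 4.86 CPM in obesity-prone, 62.2 ± 3.05 CPM in obesity-resistant and 46.1 ± 3.38 CPM in control libraries (SD). Within the group described here, Cacna1a was most like Ryr2 (r = 0.91, position 144), followed by Cacna2d3 (r = 0.90, position 195), and Orai1 was least like it (r = -0.74). These correlations rest on the same 10 libraries and largely on the split between diets.

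The 2 IP3 receptors were the more abundant release channels. Itpr1 (identifier 16438, chromosome 6, 108213083 to 108551116) averaged 31.7 ± 5.93 FPKM in obesity-prone, 35.3 ± 1.76 FPKM in obesity-resistant and 34.7 ± 2.08 FPKM in control libraries. Itpr2 (identifier 16439, chromosome 6, 146108299 to 146502258) averaged 28.9 ± 6.58 FPKM in obesity-prone, 31.5 ± 1.57 FPKM in obesity-resistant and 38.9 ± 3.26 FPKM in control libraries. In counts, Itpr2 was at 318, 307 and 197 CPM in obesity-prone libraries, at 281, 297 and 307 CPM in obesity-resistant libraries, and at 376, 405, 389 and 304 CPM in control libraries. Control replicates 1 to 3 lay above all high-fat diet libraries, and control replicate 4 lay among them. Its log2 fold change was -0.43 ± 0.17 for obesity-prone over control (adjusted p = 0.13, edgeR) and -0.32 ± 0.17 for obesity-resistant over control (adjusted p = 0.35). Itpr1 was at 296, 316 and 203 CPM in obesity-prone libraries, at 306, 303 and 289 CPM in obesity-resistant libraries, and at 295, 294, 333 and 294 CPM in control libraries, with obesity-prone replicate 3 the lowest and control replicate 3 the highest library. Its log2 fold changes were -0.16 ± 0.14 for obesity-prone over control (adjusted p = 0.48) and -0.02 ± 0.14 for obesity-resistant over control (adjusted p = 0.95). The third IP3 receptor gene, Itpr3, averaged 2.37 FPKM in obesity-prone, 2.06 FPKM in obesity-resistant and 2.11 FPKM in control libraries.

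Ryr2 took a larger share of the summed FPKM of the 6 release channel genes on the high-fat diet. As Ryr2 was chosen for its level, this share is a description. The share was 14.1%, 16.3% and 19.1% in obesity-prone libraries, 14.8%, 14.0% and 14.2% in obesity-resistant libraries, and 5.45%, 6.01%, 5.33% and 7.75% in control libraries. The sum itself overlapped between groups, at 60.8 to 83.6 FPKM in obesity-prone, 77.9 to 85.2 FPKM in obesity-resistant and 77.3 to 86.6 FPKM in control libraries. The order of mean levels was Itpr1, Itpr2, Ryr2 and Itpr3 in obesity-prone and obesity-resistant libraries, and Itpr2, Itpr1, Ryr2 and Itpr3 in control libraries. Itpr1 and Itpr2 overlapped in obesity-prone and in control libraries but not in obesity-resistant ones, and neither overlapped Ryr2 in any group. Ryr3, a minor ryanodine receptor form, reached no more than 0.02 FPKM.

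**Figure D5:**
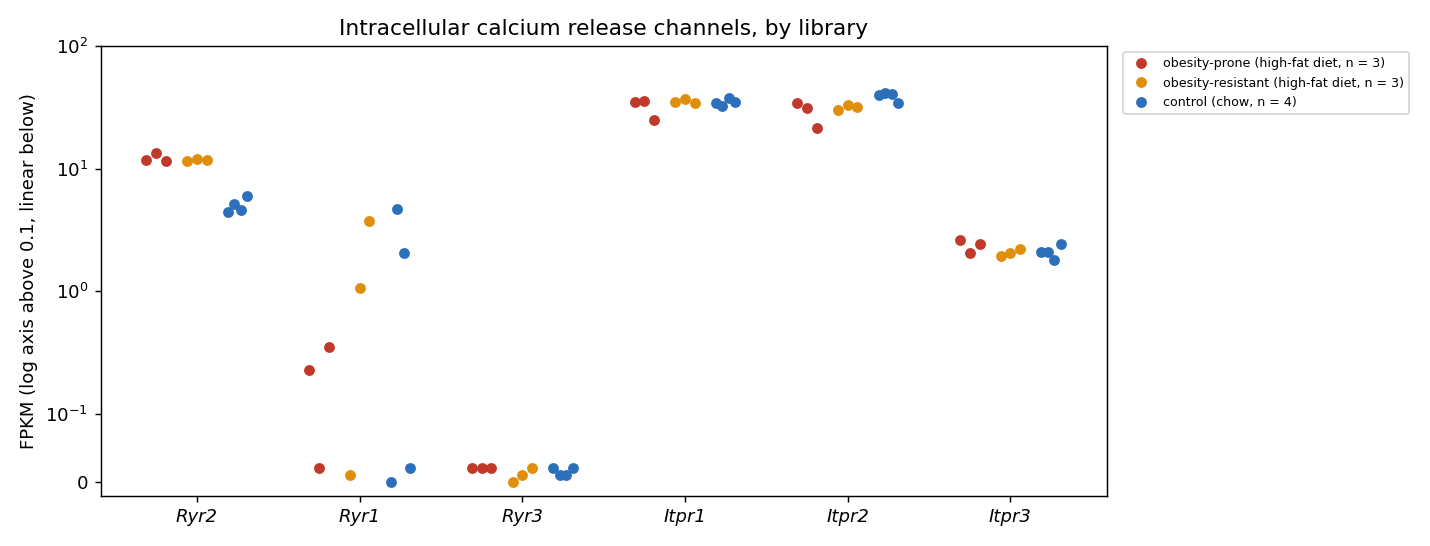
FPKM (vertical axis, log above 0.1 and linear below) of the 3 ryanodine receptor and 3 IP3 receptor genes in each obesity-prone, obesity-resistant and control library. Ryr2 lies between 11.5 and 13.3 FPKM in high-fat diet libraries and between 4.39 and 5.99 FPKM in controls, below Itpr1 and Itpr2, while Ryr1 is scattered within every group.

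Of the pumps that refill the store, Atp2a2 (identifier 11938, chromosome 5, 122453513 to 122502225) was the most abundant of the 10 genes per length. It averaged 98.2 ± 22.8 FPKM in obesity-prone, 130 ± 7.75 FPKM in obesity-resistant and 115 ± 21.2 FPKM in control libraries. In counts it was at 441, 501 and 297 CPM in obesity-prone libraries, at 566, 569 and 518 CPM in obesity-resistant libraries, and at 413, 516, 469 and 607 CPM in control libraries. Both high-fat diet groups overlapped control, and obesity-prone libraries lay below obesity-resistant ones. In the fit over all genes the log2 fold change was -0.28 ± 0.19 for obesity-prone over control (adjusted p = 0.35, edgeR) and 0.14 ± 0.18 for obesity-resistant over control (adjusted p = 0.74). Without obesity-prone replicate 3, which was also lowest in Ucp1, the value for obesity-prone over control was -0.09. The FPKM of Atp2a2 per FPKM of Ryr2 averaged 7.996 ± 1.54 in obesity-prone, 11.1 ± 0.671 in obesity-resistant and 22.7 ± 0.973 in control libraries. Ryr2 was chosen for being higher on the high-fat diet, so the gap to control follows largely from that choice. Between the high-fat diet groups neither gene passed, and the FPKM of Ryr2 also depends on its implied length.

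Atp2a3 (identifier 53313, chromosome 11, 72961169 to 72993043) encodes the pump form known from blood cells and platelets. It was at 38.3, 25.7 and 57.9 CPM in obesity-prone libraries, at 20.8, 22.9 and 27.5 CPM in obesity-resistant libraries, and at 20.2, 22.9, 19.8 and 26.9 CPM in control libraries. Obesity-prone replicates 1 and 3 lay above all other libraries, and replicate 2 lay within their range. On the log2 scale the fold change was 0.85 ± 0.23 for obesity-prone over control (adjusted p = 0.053, edgeR) and 0.08 ± 0.23 for obesity-resistant over control (adjusted p = 0.90). The first value was 1.097 and passed without obesity-prone replicate 2 (adjusted p = 0.016, edgeR), 0.95 and passed without control replicate 4 (adjusted p = 0.034), and 0.51 without obesity-prone replicate 3 (adjusted p = 0.14). The 4 platelet markers summed to between 7.10 and 19.4 CPM in obesity-prone libraries, 4.54 and 5.26 CPM in obesity-resistant libraries, and 3.997 and 10.4 CPM in control libraries, so that obesity-prone and control sums overlapped. Of these markers 3 were tested, and none passed in any comparison. Ppbp had counts in 1 library alone. The 6 macrophage markers summed to between 142 and 403 CPM in obesity-prone, 99.8 and 117 CPM in obesity-resistant and 100.2 and 171 CPM in control libraries. Of the 6 macrophage markers, 1 passed as higher in obesity-prone than in control libraries (edgeR), where 3.71% of all genes tested did. All 6 had a log2 fold change above 0 there, with a median of 1.13. For obesity-prone over obesity-resistant libraries all 6 were above 0 as well, with a median of 1.45. None passed in any comparison other than obesity-prone against control. The part of platelets and macrophages in the Atp2a3 level was not tested. Small inhibitors known in the SERCA family, not tied here to Atp2a3, were also looked at. Phospholamban (Pln) averaged 2.31 FPKM in obesity-prone, 2.69 FPKM in obesity-resistant and 2.595 FPKM in control libraries. Sarcolipin (Sln) had 1 count in all libraries together.

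Cacna1a (identifier 12286, chromosome 8, 84338631 to 84640251) encodes the pore of the P/Q-type channel, best known from nerve endings. It was at 23.8, 23.2 and 18.6 CPM in obesity-prone libraries, at 25.4, 19.4 and 25.9 CPM in obesity-resistant libraries, and at 11.4, 9.53, 12 and 9.26 CPM in control libraries. All 6 high-fat diet libraries lay above all 4 controls. The fitted log2 fold change was 1.05 ± 0.14 for obesity-prone over control and 1.16 ± 0.14 for obesity-resistant over control, and the level per length was low, at 3.02 FPKM in obesity-prone, 3.44 FPKM in obesity-resistant and 1.36 FPKM in control libraries. The obesity-resistant call was lost when obesity-resistant replicate 1 or 3 or control replicate 1 or 2 was left out, with log2 fold changes of 1.101, 1.096, 1.197 and 1.11.

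Cacna2d3 (identifier 12294, chromosome 14, 28904943 to 29722775), an alpha2-delta subunit gene, was at 2.71, 2.80 and 1.55 CPM in obesity-prone libraries, at 4.92, 3.22 and 3.24 CPM in obesity-resistant libraries, and at 0.50, 0.90, 0.57 and 1.04 CPM in control libraries. Control libraries were lowest, and obesity-resistant libraries lay above obesity-prone ones. As a log2 fold change this was 1.64 ± 0.31 for obesity-prone over control and 2.32 ± 0.31 for obesity-resistant over control, and -0.69 ± 0.32 for obesity-prone over obesity-resistant, which did not pass. The obesity-resistant call was lost without any 1 of the obesity-resistant libraries (2.09, 2.43 and 2.44 without replicates 1, 2 and 3) or of control replicates 1 to 3 (2.17, 2.42 and 2.21). The obesity-prone call was lost without obesity-prone replicate 1 (1.52) or without control replicate 1, 2 or 3 (1.48, 1.73 and 1.52). Lrtm1 lies within Cacna2d3 on the opposite strand, and the strand setting of the counting is not stated, so reads could be shared. Lrtm1 itself was at 0.368 to 0.680 CPM in obesity-prone, 0.302 to 0.556 CPM in obesity-resistant and 1.18 to 4.96 CPM in control libraries, the opposite order to Cacna2d3.

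Nerve markers were set beside Cacna1a and Cacna2d3. Of the 8 listed, 6 were found, and they summed to between 4.54 and 4.79 CPM in obesity-prone, 4.30 and 4.73 CPM in obesity-resistant and 3.39 and 3.85 CPM in control libraries, with up to 2 at 0. Most of the sum was the tubulin gene Tubb3, which averaged 3.77 CPM in obesity-prone, 3.75 CPM in obesity-resistant and 2.76 CPM in control libraries. Of the 4 nerve markers tested, 2 had a log2 fold change above 0 in either comparison with control and none passed. Syt1 averaged 0.168 CPM in obesity-prone, 0.128 CPM in obesity-resistant and 0.254 CPM in control libraries, and Snap25 reached no more than 0.0559 CPM. The part of nerve RNA in the levels of Cacna1a and Cacna2d3 was not tested.

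Cacna2d1 (identifier 12293, chromosome 5, 15934264 to 16374511), the alpha2-delta form shared by muscle and nerve, was at 13.7, 14.3 and 16.6 CPM in obesity-prone libraries, at 16.1, 17.6 and 19.0 CPM in obesity-resistant libraries, and at 13.6, 14.0, 16.1 and 13.6 CPM in control libraries. The obesity-resistant libraries sat at the upper end, but the groups touched. Its log2 fold change was 0.05 ± 0.11 for obesity-prone over control (adjusted p = 0.77, edgeR) and 0.29 ± 0.11 for obesity-resistant over control (adjusted p = 0.19). Its correlation with the muscle marker score over the 10 libraries was 0.52, the highest of the 10 genes.

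The store-operated entry genes lay close together across diets. Stim1 (identifier 20866, chromosome 7, 102261514 to 102437319) was at 141, 163 and 108 CPM in obesity-prone libraries, at 139, 137 and 158 CPM in obesity-resistant libraries, and at 153, 146, 171 and 126 CPM in control libraries. The groups overlapped, with log2 fold changes of -0.12 ± 0.15 for obesity-prone over control (adjusted p = 0.63, edgeR) and -0.04 ± 0.15 for obesity-resistant over control (adjusted p = 0.91). Orai1 (identifier 109305, chromosome 5, 123015074 to 123030452) was at 8.95, 8.78 and 8.29 CPM in obesity-prone libraries, at 9.90, 8.32 and 9.21 CPM in obesity-resistant libraries, and at 10.5, 9.21, 10.3 and 10.04 CPM in control libraries. All obesity-prone libraries lay below all controls, but the log2 fold change of -0.21 ± 0.10 did not pass (adjusted p = 0.20, edgeR). For obesity-resistant over control it was -0.13 ± 0.10 (adjusted p = 0.52). Orai1 was the 1 gene of the 10 that did not overlap with control as lower, against 10.6% of all genes tested. Among the other ORAI channel genes, Orai3 averaged 13.3 FPKM in obesity-prone, 15.7 FPKM in obesity-resistant and 17.1 FPKM in control libraries, above Orai1 at 5.82, 5.91 and 6.43 FPKM in the same groups. Orai2 averaged 0.70, 0.65 and 0.643 FPKM in these groups.

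Between the groups on the same diet, none of the 10 genes passed, and none of the 19676 genes tested did (0%, edgeR). At an unadjusted p below 0.05 there were 3030 genes, 1 of the 10 among them, which was Atp2a3 (log2 fold change 0.78 ± 0.25 for obesity-prone over obesity-resistant, adjusted p = 0.25). DESeq2 called 565 genes and none of the 10. Ryr2 in the upward direction, and Atp2a2 and Cacna2d3 in the downward direction, did not overlap between obesity-prone and obesity-resistant libraries, as 9.99% and 9.75% of all genes tested did not (19.7% together). Atp2a2 had a log2 fold change of -0.42 ± 0.20 (adjusted p = 0.34, edgeR). Without obesity-prone replicate 2, Atp2a3 passed at 1.02 (adjusted p = 0.032) and the count over all genes was 871.

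Calcium handling was also described through 77 further genes of 9 lists (release channels and their partners, ER pumps, luminal calcium binders, store-operated entry, voltage-gated entry, plasma membrane extrusion, mitochondrial uptake, and TRP and mechanosensitive channels), of which 75 were found and 70 tested. In obesity-prone against control libraries 4 rose and none fell, and in obesity-resistant against control libraries none passed. Over all genes tested, 7% passed in the first of these comparisons, 3.71% as higher, and 0.142% in the second, so the 4 of 70 lie near the share over all genes. Their median log2 fold change was -0.003 for obesity-prone over control and -0.04 for obesity-resistant over control. None of the 6 luminal calcium binders, the 12 mitochondrial uptake genes, the 9 release channel partners or the 6 tested extrusion genes passed in any of the 3 comparisons. None of the 8 tested skeletal muscle calcium genes did so either.

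The 4 that rose were Tpcn2, Cacna1b, Piezo1 and Stim2. Tpcn2, a calcium channel of lysosomes, was at 60.1, 71.8 and 64.9 CPM in obesity-prone libraries, at 63.9, 60.6 and 48.0 CPM in obesity-resistant libraries, and at 29.7, 38.4, 30.7 and 46.4 CPM in control libraries. Both high-fat diet groups lay above control. The log2 fold change was 0.85 ± 0.16 for obesity-prone over control (adjusted p = 0.022, edgeR), and it was 0.66 ± 0.16 for obesity-resistant over control (adjusted p = 0.096), where it passed with the replicate block at 0.81 (adjusted p = 0.033). The obesity-prone call was lost without control replicate 1, 2 or 3 (0.77, 0.88 and 0.78).

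Cacna1b, the pore of the N-type channel of nerve endings, was low, at 1.13 ± 0.166 CPM in obesity-prone and 0.556 ± 0.117 CPM in control libraries, with a log2 fold change of 1.02 ± 0.24 (adjusted p = 0.035, edgeR). The nerve markers given above stand beside it too, with Tubb3 higher and Syt1 lower on average in obesity-prone than in control libraries, and their part in the Cacna1b level was not tested. Piezo1, a channel opened by mechanical stretch, averaged 249 ± 9.73 CPM in obesity-prone and 168 ± 32.7 CPM in control libraries, with a log2 fold change of 0.57 ± 0.14 (adjusted p = 0.042). Stim2, the second ER calcium sensor, averaged 33.2 ± 4.10 CPM in obesity-prone and 25.6 ± 1.08 CPM in control libraries, with a log2 fold change of 0.37 ± 0.09 (adjusted p = 0.038). These 3 calls were weak, since of 10 fits that each left out 1 library, Cacna1b and Stim2 passed in 2 and Piezo1 in 1. In those fits the log2 fold changes ran from 0.89 to 1.17 for Cacna1b, 0.50 to 0.71 for Piezo1 and 0.27 to 0.45 for Stim2. With the muscle marker score as a covariate none of the 3 passed (adjusted p = 0.052 for Cacna1b, 0.070 for Piezo1 and 0.065 for Stim2, edgeR), but the log2 fold changes stayed close, at 1.07 for Cacna1b, 0.53 for Piezo1 and 0.38 for Stim2. The 5 endothelial markers, none of which passed, summed to between 923 and 1094 CPM in obesity-prone, 844 and 1040.4 CPM in obesity-resistant and 594 and 1104 CPM in control libraries. Among controls their sum had the same order as Tpcn2 and Piezo1, lowest in replicate 1, then 3, 2 and 4. In both high-fat diet groups the order of the sums differed from that of Tpcn2. They were 1083, 923 and 1094 CPM in obesity-prone and 1040.4, 844 and 908 CPM in obesity-resistant replicates 1 to 3. The part of these cells in the levels of Tpcn2 and Piezo1 was not tested.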

How the data were processed

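Total RNA of brown adipose tissue was sequenced in 10 libraries. Per the labels' protocols, the authors aligned clean reads with Bowtie2 2.2.5 to a gene set of the sequencing company and computed expression with RSEM 1.2.12. HISAT2 2.0.4 and GRCm38.p6 come from the submitters' processing notes. The deposited table gives the RSEM expected count of each gene and library, not normalised, of which 30.4% of values were not whole. It also gives deposited FPKM values, computed by the authors per length and library total. The authors' 6 group mean columns were not used. Strand setting and annotation release are not given in the sources used here.

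Expected counts were rounded and tested in edgeR 4.0.16 (R 4.3.3) with normalisation by TMM, low counts removed by filterByExpr (minimum count 10; all 10 genes passed), and a robust quasi-likelihood fit over the 3 groups, with 7 residual degrees of freedom. P-values were adjusted by Benjamini-Hochberg over 19676 genes, with a threshold of 0.05. CPM use TMM library sizes. The SE of a log2 fold change is its absolute value divided by the square root of the quasi-likelihood F statistic. Implied length is expected count divided by FPKM and by the library total, scaled as FPKM is. Library totals of 35583997 to 37327770 counts set the precision, which is lowest for genes at about 1 CPM. No libraries of a group agreed within sampling noise. The script was tested on simulated counts.

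The genes, lists and tests were chosen with earlier results of these data known. Named were the 10 genes, list genes that passed in any comparison, their close relatives, marker checks and the 5 genes most correlated with Ryr2, 1 of which is not reported here. Genes named beyond these, Myl4, Myh6, Tubb3, Snap25, Syt1, Ppbp and Lrtm1, were chosen after their values were seen. Listed symbols that were not found, such as Nppa, Th and Dbh, were not analysed here. The deviations of same-numbered obesity-resistant and control libraries had weak correlations (r = 0.15, 0.12 and 0.19 for replicates 1 to 3). Libraries of different numbers were not compared in this way, and the labels give no pairing. Whether the replicate number pairs libraries is therefore not known, and the block was run only as an alternative. Alternatives were RLE and upper-quartile factors, DESeq2 1.42.0, no filter, 1 CPM in 3 libraries, only the 2 groups compared, the replicate block, the skeletal muscle score as a covariate, limma 3.58.1 on log2 of FPKM plus 0.5, 0.1 or 1, and leaving out each library.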

Additional observations from a re-analysis of the deposited data

Results flagged for a closer look

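Itpr1 in control replicate 3 was at 333 CPM, while the other 3 control libraries lay between 294 and 295 CPM. The gap made up almost the whole range of the group. Chance sets 1 sample apart in this way in about 1 in 20 groups, and 10 genes were looked at. No comparison of Itpr1 passed the threshold.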

How the results depend on the processing

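Of the 10 genes, 3 passed in obesity-resistant against control libraries under every alternative other than leaving out a library, where it was 1 to 3. In obesity-prone against control libraries it was 2 to 4 without 1 library, and between the high-fat diet groups 0 to 1. The count over all genes moved more. For obesity-resistant against control it was 1138 with DESeq2, 76 with no filter, 68 with 1 CPM in 3 libraries, 391 with only the 2 groups, 382 with the replicate block, 54 with the muscle score and 3 to 864 without 1 library. For obesity-prone against control it was 3138 with DESeq2, 66 with only the 2 groups, 560 with the muscle score and 76 to 3040 without 1 library. Between the high-fat diet groups it was 565 with DESeq2 and 0 to 871 without 1 library. The cause was not tested.

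For same-numbered obesity-prone libraries, r was -0.09, -0.10 and -0.15 with control and -0.11, -0.06 and 0.21 with obesity-resistant libraries. These values do not settle whether the numbers pair libraries. The block gave 1582 genes for obesity-prone against control and 0 between the high-fat diet groups. The block changed no call of the 10 genes. With only the 2 groups, Cacna2d3 did not pass in obesity-prone against control libraries (log2 fold change 1.64), and Atp2a3 passed there with DESeq2 and with 1 CPM in 3 libraries.

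Ryr2 passed against control under every alternative, at 1.78 to 2.03 for obesity-prone and 1.57 to 1.78 for obesity-resistant libraries without 1 library. With limma on log2 FPKM it was down to 1.14 for obesity-prone and 1.09 for obesity-resistant libraries, and Cacna2d3 to 0.55 for obesity-prone and 0.92 for obesity-resistant libraries. Values near 0 changed sign. With limma on log2 FPKM plus 0.5, 0.1 and 1, Itpr1 was at 0.0222, 0.0224 and 0.0218 and Stim1 at 0.0022, 0.0022 and 0.0021 for obesity-resistant over control, and Cacna1b at -0.0153, -0.0418 and -0.0085 for obesity-prone over obesity-resistant. Without 1 library, obesity-resistant over control ran from -0.030 to 0.18 for Atp2a3, -0.040 to 0.023 for Itpr1 and -0.12 to 0.028 for Stim1. Obesity-prone over control ran from -0.29 to 0.0086 for Itpr1, -0.032 to 0.11 for Cacna2d1 and -0.26 to 0.030 for Stim1. Obesity-prone over obesity-resistant ran from -0.27 to 0.032 for Itpr1, -0.23 to 0.085 for Itpr2 and -0.22 to 0.073 for Stim1. An added constant understates changes of low genes, and depth limits the precision of low genes such as Cacna2d3 and Cacna1b. For Ryr2, mean FPKM with no constant gave log2 ratios of 1.28 for obesity-prone and 1.22 for obesity-resistant over control. These lie below the values from counts. The implied length described above is computed from counts and FPKM, so its shift restates this gap and is not a separate result.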
